A study of Mus musculus with 5 samples.

Results

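The PGC-1 coactivators and the transcription factors that they bind form a control circuit for building mitochondria, and 10 of its genes were followed in injured mouse kidneys with and without tubular deletion of Prdm16. The genes were Ppargc1a, Ppargc1b, Esrra, Esrrg, Nrf1, Gabpa, Tfam, Ppara, Rxra and Sirt3. They were picked by name, with earlier results of these data known, as were the gene lists set beside them. Each of the 10 was found among the 35478 genes listed for every mouse and among the 16394 that passed the filter on low counts. Kidney RNA came from 2 Prdm16fl/fl mice, numbered 1 and 3, and from 3 Ksp-Cre/Prdm16fl/fl mice, numbered 1, 2 and 3, with 1 library per mouse. The mice of both groups carried the floxed Prdm16 allele, were given as strain C57BL/6J;129 in one label field and as C57BL/6J in another, were male and 7 to 8 weeks old, and underwent unilateral ischemia-reperfusion injury (UIRI). In this model the left renal pedicle was clamped for 35 minutes on a bath at 38.5 °C, the right kidney was taken out on day 10, and the mice were killed 24 hours later, on day 11. Ksp-Cre drives Cre recombinase in tubular epithelial cells, so a whole-tissue library of a Ksp-Cre/Prdm16fl/fl mouse also holds RNA of cells that kept Prdm16. No uninjured kidney was compared here. The study asked what loss of this transcription regulator in tubules does to the injured kidney and its mitochondria.

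Proximal tubule cells reabsorb most of the filtrate and rely on fatty acid oxidation and oxidative phosphorylation, which makes them among the cells richest in mitochondria. PGC-1α and PGC-1β do not bind DNA themselves but join transcription factors on it. ERRα and ERRγ act on genes of the tricarboxylic acid cycle and respiratory chain, NRF1 and GABP on nuclear genes of the respiratory chain and on Tfam, and PPARα, paired with RXRα, on genes of fatty acid oxidation. TFAM packages and transcribes mitochondrial DNA. SIRT3 is an NAD-dependent deacetylase of the mitochondrial matrix whose gene is a known target of PGC-1α and ERRα.

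The libraries held between 14939040 and 16425161 counted reads. Gene counts were scaled to counts per 1000000 (CPM) with TMM factors and compared between genotypes with the quasi-likelihood test of edgeR, with p-values adjusted by Benjamini-Hochberg over all 16394 genes. A fold change is the Ksp-Cre/Prdm16fl/fl level over the Prdm16fl/fl level on the log2 scale. Prdm16 itself stood at 25.3 and 20.0 CPM in the Prdm16fl/fl mice 1 and 3 and at 17.1, 17.0 and 17.99 CPM in the Ksp-Cre/Prdm16fl/fl mice 1, 2 and 3 (fold change -0.38, SE 0.15, adjusted p = 0.26). The groups did not overlap, as for 21.3% of all genes on the lower side, and the difference did not pass the test. The whole-gene count also takes in reads from exons outside the floxed exon and from cells without Cre, whose part was not tested. Of all genes tested, 160 passed an adjusted p of 0.05, with 143 lower and 17 higher in Ksp-Cre/Prdm16fl/fl kidneys, which was 0.976% of the genes. Scaled by library size alone, 14 were higher and 37 lower, and the median fold change of all genes moved up by 0.11. Without Ksp-Cre/Prdm16fl/fl mouse 3 that number was 3053, and without any other single mouse it was 0 (between 1330 and 2514 genes at an unadjusted p under 0.05).

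None of the 10 regulators passed an adjusted p of 0.05, against 0.976% of all genes tested. At an unadjusted p under 0.05 there were 4, Ppargc1a, Esrra, Tfam and Sirt3, all lower in Ksp-Cre/Prdm16fl/fl kidneys, where 11.2% of all genes were lower at that level and 7.64% higher. The level was below both Prdm16fl/fl mice in all 3 Ksp-Cre/Prdm16fl/fl mice for 5 regulators, these 4 and Esrrg (21.3% of all genes), and above both for 1, Nrf1 (20.3% of all genes). Groups overlapped for Ppargc1b, Gabpa, Ppara and Rxra. The median fold change of the 10 was -0.25, beside 0.04 over all genes tested. DESeq2 called 2 of the 10 lower, Ppargc1a and Sirt3, where it called 5.96% of the genes to which it gave an adjusted p lower. With Ksp-Cre/Prdm16fl/fl mouse 3 left aside, edgeR called 3 of the 10 lower, Ppargc1a, Tfam and Sirt3, where it called 11.0% of all genes lower and 18.9% in either direction.

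**Figure D1:**
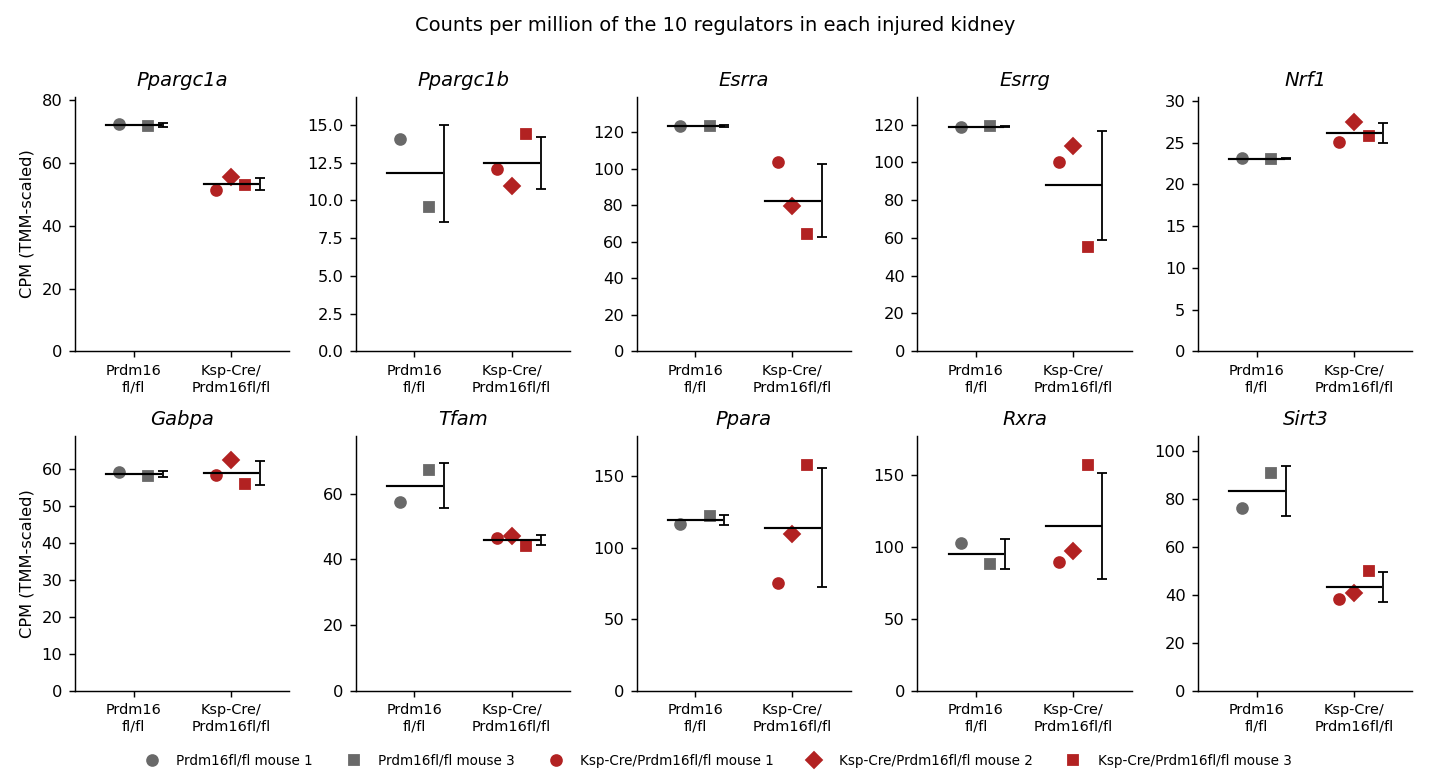
CPM (TMM-scaled, linear axes from 0) of each regulator in each mouse, with the group mean as a bar and the SD beside it. Both Prdm16fl/fl mice lie above all 3 Ksp-Cre/Prdm16fl/fl mice for Ppargc1a, Esrra, Esrrg, Tfam and Sirt3, Ksp-Cre/Prdm16fl/fl mouse 3 stands away from its group for Esrrg and Rxra, and the 3 Ksp-Cre/Prdm16fl/fl mice are spread apart for Ppara.

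Markers of several cell types also differed between the genotypes. Of all 16394 genes tested, 7537 had a fold change below 0 and 8857 above 0. All 14 proximal tubule markers had a fold change below 0 (median -1.31). Of these, 3 passed an adjusted p of 0.05 (0.976% of all genes), Slc22a8, Miox and Acsm2. The summed level of the 14 was 26365 to 32278 CPM in the Prdm16fl/fl mice and 8402 to 13146 CPM in the Ksp-Cre/Prdm16fl/fl mice. None of the 14 was at 0 in these kidneys. Medians were also below 0 for markers of the thick ascending limb (-0.66), distal convoluted tubule, collecting duct (-0.60), intercalated cells (-0.91) and podocytes (-0.75), the last of which lie outside the tubule. Of the 4 podocyte markers, 1 was lower past an adjusted p of 0.05. Of 8 tubular injury markers, 7 had a fold change above 0 (median 1.08), with summed levels of 15066 to 15666 CPM against 32164 to 38097 CPM, and all 6 fibroblast and myofibroblast markers had a fold change above 0 (median 0.54). The part of these shifts in the levels of Ppargc1a, Esrra, Tfam, Sirt3 and their targets was not tested, and fewer tubule cells and less RNA per tubule cell cannot be told apart in whole-kidney RNA. Of other cells, the 5 erythroid markers had a median of 3.93, with summed levels of 6.67 to 10.8 CPM against 40.5 to 151 CPM, and medians were -0.13 for endothelial, 0.07 for macrophage, -0.31 for lymphocyte and 0.45 for proliferation markers. The 5 fat cell markers summed to at most 0.473 CPM in any mouse.

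Levels of different genes were compared per gene length, in TPM, as deposited. In the Prdm16fl/fl kidneys the order of mean TPM ran from Sirt3 (114 ± 6.37, SD, n = 2) and Esrra (105 ± 7.48) through Rxra (36.7 ± 6.47), Tfam (33.8 ± 1.38), Ppara (25.0 ± 0.973), Gabpa (24.5 ± 2.03) and Esrrg (23.2 ± 1.52) to Ppargc1a (9.89 ± 0.757), Nrf1 (3.45 ± 0.248) and Ppargc1b (2.40 ± 0.812). The neighbours Sirt3 and Esrra, Rxra and Tfam, Ppara and Gabpa, and Gabpa and Esrrg were not separated by both mice. Both coactivator genes thus had a lower TPM than ERRα, ERRγ and PPARα, the nuclear receptors that their products join. In the Ksp-Cre/Prdm16fl/fl kidneys Esrra (83.3 ± 24.1 TPM, SD, n = 3) and Sirt3 (69.2 ± 5.26 TPM) changed places in the order without being separated in every mouse, and the 3 genes of lowest TPM were again Ppargc1a (8.63 ± 0.671), Nrf1 (4.62 ± 0.413) and Ppargc1b (2.95 ± 0.231).

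**Figure D2:**
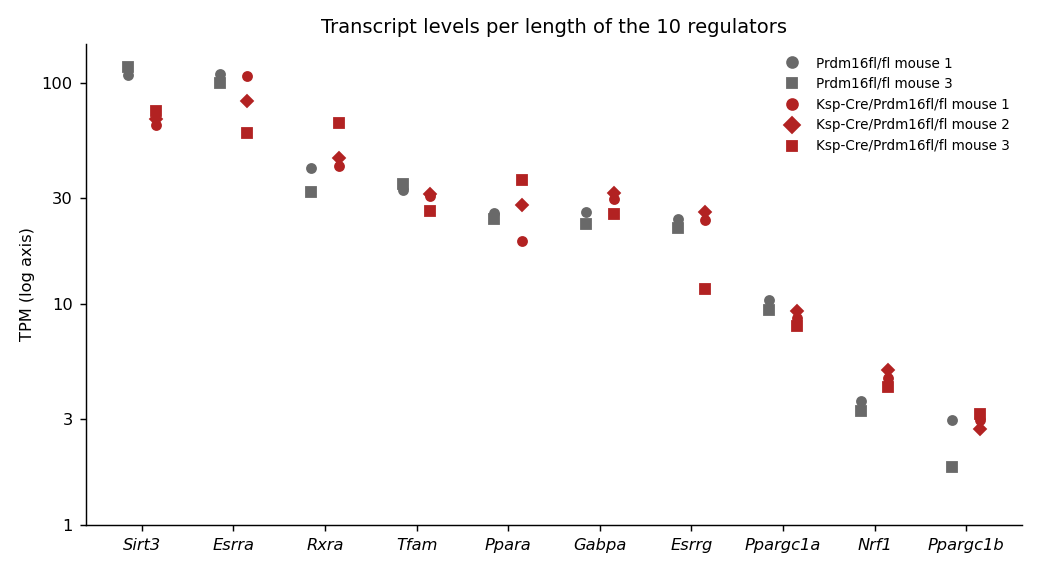
TPM of each regulator in each mouse on a log axis, ordered by the mean of the Prdm16fl/fl mice. Levels span from 1.83 TPM for Ppargc1b in Prdm16fl/fl mouse 3 to 118 TPM for Sirt3 in the same mouse.

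Ppargc1a, which encodes PGC-1α, the coactivator that responds to fasting, cold and exercise, lies at chr5:51611591-52273337 on the minus strand in the coordinates of the files. It stood at 72.6 and 71.8 CPM in the Prdm16fl/fl mice 1 and 3 and at 51.4, 55.5 and 53.2 CPM in the Ksp-Cre/Prdm16fl/fl mice 1, 2 and 3. The 3 Ksp-Cre/Prdm16fl/fl values lay close together and below the pair, at 73.9% of the Prdm16fl/fl level (fold change -0.44, 95% confidence interval -0.68 to -0.19, adjusted p = 0.10). Its adjusted p was 0.037 with DESeq2 and 0.017 without Ksp-Cre/Prdm16fl/fl mouse 3, while limma on log2(FPKM + 1) gave a fold change of -0.26 (adjusted p = 0.24). On the TPM scale the groups nearly met, at 10.4 and 9.36 TPM against 8.62, 9.30 and 7.96 TPM. The log2 difference was -0.20 there, where the median over all genes was 0.26.

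Ppargc1b encodes PGC-1β, the relative that sustains basal mitochondrial content, and lies at chr18:61424516-61533846 on the minus strand. Its levels were 14.1 and 9.54 CPM in the Prdm16fl/fl mice and 12.1, 11.0 and 14.4 CPM in the Ksp-Cre/Prdm16fl/fl mice, so the groups overlapped (fold change 0.08, 95% confidence interval -0.49 to 0.65, adjusted p = 0.88). Exons of Pde6a on the other strand cover 20.1% of its length. Within a library, Ppargc1a exceeded Ppargc1b per length by a ratio of 3.504 and 5.12 in the Prdm16fl/fl mice and of 2.89, 3.43 and 2.51 in the Ksp-Cre/Prdm16fl/fl mice. All 3 ratios of the Ksp-Cre/Prdm16fl/fl mice were the lower ones, and the two-sided exact permutation test gave p = 0.2, the smallest p that 10 splits of the 5 mice allow.

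The promoter listed for Ppargc1a is shown because this coactivator gives the circuit its name. Its capitals mark a core of the cyclic AMP response element, the letters TGACGT read on the minus strand of the promoter. Counts per gene do not show whether transcription in these kidneys began at the listed start. Promoter sequences are from RefSeq (GRCm38.p6, an assembly other than that of the coordinates in the files) and are given in the direction of the gene, without bases that fall in annotated exons.

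Ppargc1a promoter, chr5:51567727-51567975, minus strand: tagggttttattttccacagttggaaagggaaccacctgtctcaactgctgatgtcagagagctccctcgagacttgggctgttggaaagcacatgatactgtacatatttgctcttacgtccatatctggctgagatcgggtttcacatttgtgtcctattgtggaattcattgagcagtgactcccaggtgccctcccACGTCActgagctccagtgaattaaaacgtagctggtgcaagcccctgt

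This core begins 50 bases before the listed start. Searched on both strands, TGACGT is held by 7.51% of all 32851 promoter windows of 300 bases, from 250 bases before to 50 after the start, and by Ppargc1a alone among the 9 regulators with a listed window.

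The estrogen-related receptors were lower in every Ksp-Cre/Prdm16fl/fl mouse than in either Prdm16fl/fl mouse on the CPM scale, without passing the test. Esrra, which encodes ERRα and lies at chr19:6888345-6899416 on the minus strand, was at 124 and 123 CPM in the Prdm16fl/fl mice and at 104, 79.7 and 64.1 CPM in the Ksp-Cre/Prdm16fl/fl mice 1, 2 and 3. The Prdm16fl/fl pair was nearly equal, while the Ksp-Cre/Prdm16fl/fl mice spread widely below it (fold change -0.58, 95% confidence interval -1.08 to -0.08, adjusted p = 0.21). On the TPM scale, on which the median difference over all genes was 0.26 and not the 0.02 of the CPM scale, the groups overlapped, with 110.0 and 99.4 TPM against 107.7, 82.8 and 59.4 TPM.

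Esrrg, which encodes ERRγ and lies at chr1:187340707-187947082 on the plus strand, was at 118.7 and 119.3 CPM in the Prdm16fl/fl mice and at 100.1, 109 and 55.0 CPM in the Ksp-Cre/Prdm16fl/fl mice. Most of its difference lay in Ksp-Cre/Prdm16fl/fl mouse 3 (fold change -0.44, 95% confidence interval -1.13 to 0.25, adjusted p = 0.46), and without that mouse the fold change was -0.19. On the TPM scale the groups overlapped for Esrrg too. The ratio of Esrra to Esrrg per length overlapped between the groups, with 4.53 and 4.49 in the Prdm16fl/fl mice and 4.50, 3.19 and 5.07 in the Ksp-Cre/Prdm16fl/fl mice.

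The extended ERR response element TNAAGGTCA was not found in any of the 15 promoter windows listed for 9 of the regulators, and 1.28% of all windows hold it. The Esrra promoter is printed because ERRα is a well-known partner of PGC-1α, and its capitals mark GCATGCG, the core letters of the NRF1 motif, which 3.58% of all windows hold.

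Esrra promoter, chr19:6921814-6922058, minus strand: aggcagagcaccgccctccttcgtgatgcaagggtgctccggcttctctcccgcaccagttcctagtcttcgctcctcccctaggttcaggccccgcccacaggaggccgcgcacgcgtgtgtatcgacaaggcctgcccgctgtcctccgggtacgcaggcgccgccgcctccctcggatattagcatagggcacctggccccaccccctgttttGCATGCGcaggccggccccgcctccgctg

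The core begins 34 bases before the start. The stretch has a GC content of 68.6%, and that of Ppargc1a 48.2%.

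The nuclear respiratory factors were not lower. Nrf1, at chr6:30047984-30153457 on the plus strand, stood at 23.1 and 23.0 CPM in the Prdm16fl/fl mice and at 25.1, 27.5 and 25.8 CPM in the Ksp-Cre/Prdm16fl/fl mice. All 3 Ksp-Cre/Prdm16fl/fl values were above the pair by a small margin (fold change 0.18, 95% confidence interval -0.12 to 0.48, adjusted p = 0.48). Gabpa, which encodes the DNA-binding subunit of GABP and lies at chr16:84631774-84660671 on the plus strand, stood at 59.2 and 58.0 CPM against 58.4, 62.3 and 56.0 CPM. These values interleaved (fold change 0.01, 95% confidence interval -0.25 to 0.27, adjusted p = 0.98), and the sign turned to -0.03 with a gene length trend removed.

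Tfam lies at chr10:71061298-71074157 on the minus strand. It was at 57.6 and 67.2 CPM in the Prdm16fl/fl mice and at 46.3, 47.1 and 44.0 CPM in the Ksp-Cre/Prdm16fl/fl mice. The Ksp-Cre/Prdm16fl/fl values were tight and all below the pair, at 73.4% of the Prdm16fl/fl level (fold change -0.45, 95% confidence interval -0.73 to -0.16, adjusted p = 0.13). Without Ksp-Cre/Prdm16fl/fl mouse 3 its adjusted p was 0.030. On the TPM scale its log2 difference was -0.20, at 32.9 and 34.8 TPM against 30.9, 31.4 and 26.2 TPM. Centred on their means over the 5 libraries, the log2 CPM of Tfam and Ppargc1a differed by a root mean square of 0.086, the smallest difference of any pair of regulators, and those of Nrf1 and Gabpa by 0.091, the next.

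Sirt3 had the largest fold change of the 10. It lies at chr7:140443576-140462222 on the minus strand and was at 76.0 and 90.8 CPM in the Prdm16fl/fl mice and at 38.4, 40.9 and 50.1 CPM in the Ksp-Cre/Prdm16fl/fl mice. The highest Ksp-Cre/Prdm16fl/fl value was far below the lowest Prdm16fl/fl value, and the mean level was 51.7% of that in Prdm16fl/fl kidneys (fold change -0.95, 95% confidence interval -1.33 to -0.57, adjusted p = 0.054). Its adjusted p was 2.3e-04 with DESeq2, 0.027 without the filter on low counts and 9.9e-04 without Ksp-Cre/Prdm16fl/fl mouse 3. Psmd13, a proteasome subunit gene, starts 85 bp from Sirt3 on the other strand, so both share 1 promoter region. Psmd13 stood at 89.8 and 89.5 CPM in the Prdm16fl/fl mice and at 97.0, 95.1 and 115.7 CPM in the Ksp-Cre/Prdm16fl/fl mice (fold change 0.19, SE 0.13, adjusted p = 0.47).

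**Figure D3:**
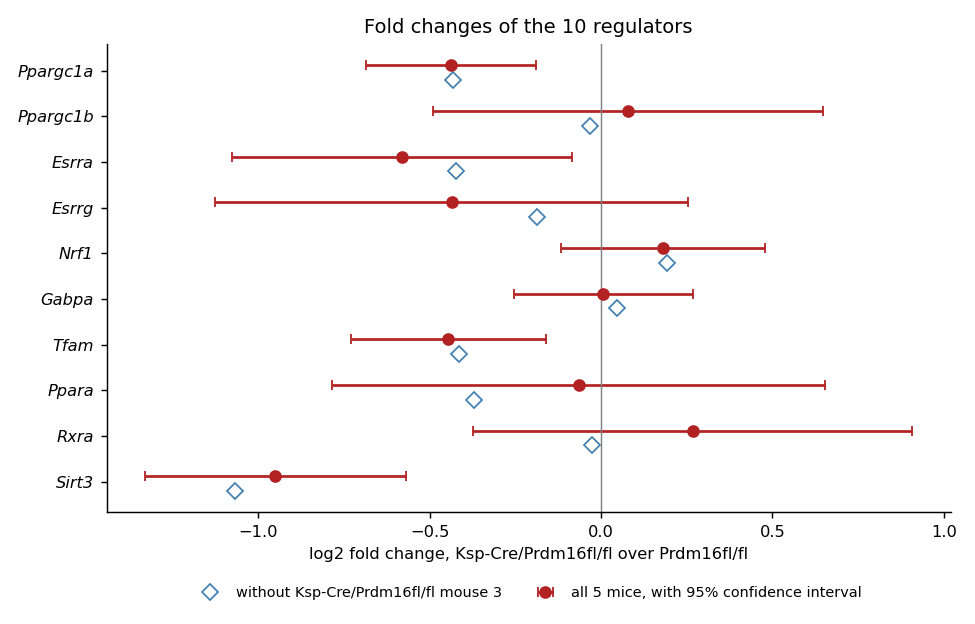
Fold change of each regulator on the log2 scale with its 95% confidence interval over all 5 mice (filled), and without Ksp-Cre/Prdm16fl/fl mouse 3 (open). The intervals of Ppargc1a, Esrra, Tfam and Sirt3 lie below 0, and leaving out that mouse shifted Ppara from -0.07 to -0.37 and Rxra from 0.27 to -0.03.

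GABP and other ETS factors bind the letters CCGGAAG, which 8.86% of all promoter windows hold and which stand in the windows of Tfam, Sirt3 and Gabpa. These sites are shown because Tfam and Sirt3 were lower and Gabpa was not. The windows of these genes overlap annotated exons along most or all of their upstream part, so each site is printed with only 11 bases on either side, the motif in capitals, and the motif of Sirt3 and Gabpa reads on the minus strand of the promoter.

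Tfam site, chr10:71238074-71238102, minus strand: cctgccgcggaCCGGAAGtccgggcttcc

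Sirt3 site, chr7:140882377-140882405, minus strand: gtgctcgctcaCTTCCGGcaccgcgggcg

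Gabpa site, chr16:84835020-84835048, plus strand: gagggtaagtgCTTCCGGgtccctcagct

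The motif begins 47 bases before the start in Tfam, 85 in Sirt3 and 93 in Gabpa. A match of letters does not show that a factor is bound there.

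PPARα and its partner RXRα differed more among the Ksp-Cre/Prdm16fl/fl mice than between the genotypes. Ppara, at chr15:85619112-85691052 on the plus strand, was at 117 and 122 CPM in the Prdm16fl/fl mice and at 75.2, 109 and 158 CPM in the Ksp-Cre/Prdm16fl/fl mice 1, 2 and 3. Mouse 1 lay below and mouse 3 above both Prdm16fl/fl mice (fold change -0.07, 95% confidence interval -0.78 to 0.65, adjusted p = 0.92), and the sign turned to 0.03 with scaling by library size. Rxra, at chr2:27566457-27653331 on the plus strand, was at 102 and 87.9 CPM against 89.7, 96.9 and 157 CPM. Mouse 3 stood out (fold change 0.27, 95% confidence interval -0.37 to 0.91, adjusted p = 0.62), and without it the fold change was -0.03. On the TPM scale, however, all 3 Ksp-Cre/Prdm16fl/fl mice were above the pair.

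The NRF1 core GCATGCG stands in windows of 4 regulators, Esrra, Esrrg, Gabpa and Ppara. The core reads on both strands, in overlapping letters, in Ppara and in Gabpa. The Ppara promoter is printed because that of Gabpa falls in annotated exons at these letters, and its capitals mark both readings.

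Ppara promoter, chr15:85735714-85735775, plus strand: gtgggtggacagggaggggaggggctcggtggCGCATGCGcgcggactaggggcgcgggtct

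Targets of PPARα followed no single direction. Of 27 target genes tested, none passed an adjusted p of 0.05, and the median fold change was 0.23. At an unadjusted p under 0.05, 3 were lower, a share near the 11.2% of all genes, and 1 was higher (7.64% of all genes). Acadm, the medium-chain acyl-CoA dehydrogenase, was at 549 and 861 CPM in the Prdm16fl/fl mice and at 294.5, 321 and 307 CPM in the Ksp-Cre/Prdm16fl/fl mice (fold change -1.20, SE 0.21, adjusted p = 0.056). Fabp3, a fatty acid-binding protein, was at 85.7 and 78.7 CPM against 49.9, 32.0 and 31.8 CPM (fold change -1.12, SE 0.22, adjusted p = 0.073). Acox2, a peroxisomal oxidase of branched-chain fatty acids and bile acid precursors, was at 53.0 and 85.2 CPM against 23.7, 38.3 and 17.9 CPM (fold change -1.37, SE 0.35, adjusted p = 0.12). These 3 genes were lower in every Ksp-Cre/Prdm16fl/fl mouse than in either Prdm16fl/fl mouse, as were 21.3% of all genes.

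Other PPARα targets were far higher in Ksp-Cre/Prdm16fl/fl mouse 3 than in any other mouse. Cpt1a, which passes long-chain fatty acids to the mitochondrion, was at 375 and 343 CPM in the Prdm16fl/fl mice and at 305, 337 and 923 CPM in the Ksp-Cre/Prdm16fl/fl mice 1, 2 and 3 (fold change 0.54, SE 0.50, adjusted p = 0.60). Pdk4, a kinase that shuts off pyruvate oxidation, was at 19.1 and 32.6 CPM against 41.9, 96.4 and 414 CPM (fold change 2.83, SE 1.01, adjusted p = 0.21), and Plin2, which coats lipid droplets, at 131 and 166 CPM against 193, 297 and 1899 CPM (fold change 2.42, SE 1.04, adjusted p = 0.28). Pdk4 and Plin2 were chosen after their values were seen. Summed over the 28 genes of the list, the level was 4750 and 6239 CPM in the Prdm16fl/fl mice and 3425, 4798 and 12219 CPM in the Ksp-Cre/Prdm16fl/fl mice, so Ksp-Cre/Prdm16fl/fl mouse 1 was the lowest and mouse 3 the highest of the 5, as for Ppara itself. The median fold change of the list was 0.23 with all mice and -0.33 without Ksp-Cre/Prdm16fl/fl mouse 3, and 8 of the 27 were then called, 6 lower and 2 higher, where 18.9% of all genes were called.

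Of 18 ERR targets tested, none passed an adjusted p of 0.05, and the median fold change was -0.61. At an unadjusted p under 0.05, 15 were lower (11.2% of all genes) and 1, Pdk4, was higher, and 16 lay below both Prdm16fl/fl mice in every Ksp-Cre/Prdm16fl/fl mouse (21.3% of all genes). Sdhb, the iron-sulfur subunit of complex II, was at 304 and 384 CPM in the Prdm16fl/fl mice and at 188, 165 and 179 CPM in the Ksp-Cre/Prdm16fl/fl mice (fold change -0.96, SE 0.15, adjusted p = 0.0505). Ndufa4, a subunit of cytochrome c oxidase, was at 371 and 360 CPM against 221, 194 and 219 CPM (fold change -0.79, SE 0.12, adjusted p = 0.052). In both genes the Ksp-Cre/Prdm16fl/fl mice lay close together, mouse 3 included. Without that mouse 14 of the 18 were called, 13 lower and Pdk4 higher, where 18.9% of all genes were called.

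Of 16 targets of NRF1 and GABP tested, 10 were lower (11.2% of all genes) and none higher (7.64%) at an unadjusted p under 0.05. Their median fold change was -0.48. Uqcrq, a subunit of complex III, fell from 289 and 362 CPM in the Prdm16fl/fl mice to 167, 139 and 151 CPM in the Ksp-Cre/Prdm16fl/fl mice and was the 1 gene of the list past an adjusted p of 0.05 (fold change -1.10, SE 0.15, adjusted p = 0.045). Its adjusted p was 0.0022 without Ksp-Cre/Prdm16fl/fl mouse 3 and 0.13 to 0.51 when any other mouse was omitted. This list shares Atp5b, Cycs, Sdhb and Tfam with the ERR targets, so the lists do not count separate evidence.

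**Figure D4:**
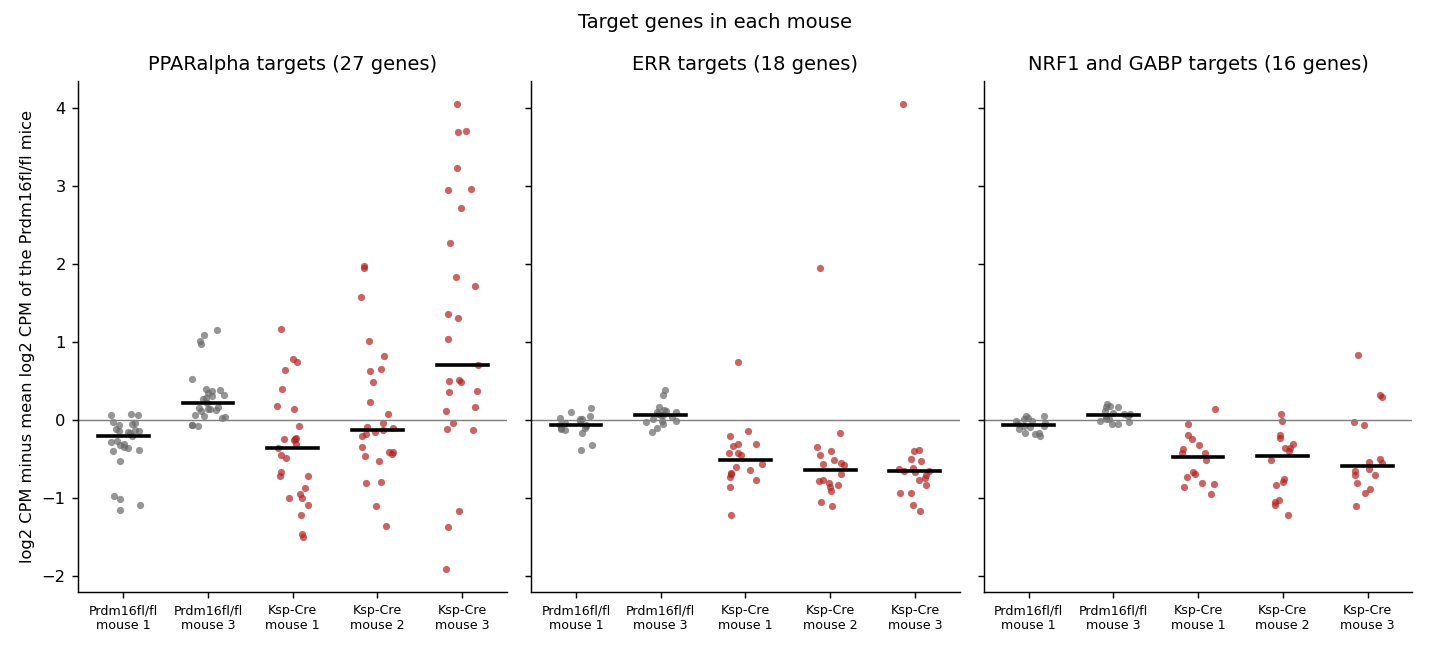
Difference in log2 CPM of each target gene from its Prdm16fl/fl mean, by mouse (points), with the list median (bar), for 27 PPARα, 18 ERR and 16 NRF1 and GABP targets. The medians of ERR targets were -0.51, -0.64 and -0.66 in the Ksp-Cre/Prdm16fl/fl mice 1, 2 and 3, while those of PPARα targets were -0.36, -0.13 and 0.70.

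NAD synthesis and the substrates of SIRT3 held the other called genes around the circuit. PGC-1α is known to act on the route from tryptophan to NAD in the kidney. Of 9 enzymes of that route tested, 5 were lower (11.2% of all genes) and none higher (7.64%) at an unadjusted p under 0.05. Their median fold change was -0.57. Afmid, the arylformamidase, fell from 124 and 132 CPM to 47.0, 51.4 and 57.3 CPM (fold change -1.30, SE 0.12, adjusted p = 0.033). Haao, which makes the precursor of quinolinate, fell from 114 and 142 CPM to 34.1, 43.7 and 22.7 CPM (fold change -1.93, SE 0.27, adjusted p = 0.044). In both genes the groups were far apart, with no Ksp-Cre/Prdm16fl/fl value near a Prdm16fl/fl value. Omitting a mouse other than Ksp-Cre/Prdm16fl/fl mouse 3 brought the adjusted p to 0.11 to 0.50 for Afmid and 0.13 to 0.52 for Haao.

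Of 7 tested matrix enzymes that SIRT3 deacetylates, 4 were lower (11.2% of all genes) and none higher (7.64%) at an unadjusted p under 0.05. Their median fold change was -0.54. Sod2, the manganese superoxide dismutase, fell from 277 and 297 CPM to 163, 154 and 138 CPM (fold change -0.92, SE 0.13, adjusted p = 0.044). Its adjusted p ran from 0.13 to 0.52 when a mouse other than Ksp-Cre/Prdm16fl/fl mouse 3 was omitted. Deacetylation itself is not measured by these libraries.

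Of the genes that act on PGC-1α, on its partners or on mitochondrial DNA, none passed an adjusted p of 0.05. Among 27 coactivator relatives, corepressors and upstream kinases, 2 were higher at an unadjusted p under 0.05, a share near the 7.64% of all genes. None was lower, where 11.2% of all genes were (median fold change 0.12). Prkaa1, the α1 subunit of AMP-activated kinase, was at 47.5 and 45.5 CPM in the Prdm16fl/fl mice and at 59.8, 57.4 and 61.6 CPM in the Ksp-Cre/Prdm16fl/fl mice (fold change 0.36, SE 0.10, adjusted p = 0.15). Nrip1, also called RIP140, a corepressor of ERRs and PPARs, was at 46.1 and 50.2 CPM against 60.6, 68.5 and 57.7 CPM (fold change 0.37, SE 0.12, adjusted p = 0.19). Both genes were higher in each Ksp-Cre/Prdm16fl/fl mouse than in either Prdm16fl/fl mouse, as were 10 of the 27 and 20.3% of all genes. Of the 27, 1 was lower in each (21.3% of all genes).

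Among 11 relatives of the member transcription factors, 2 were lower, where 11.2% of all genes were, and none higher at an unadjusted p under 0.05 (median fold change -0.18). Nr1h3, which encodes the sterol receptor LXRα, was at 35.3 and 39.8 CPM against 27.7, 29.5 and 24.8 CPM (fold change -0.46, SE 0.13, adjusted p = 0.15). Esrrb, which encodes ERRβ, was at 13.3 and 14.8 CPM against 8.97, 8.21 and 10.9 CPM (fold change -0.59, SE 0.19, adjusted p = 0.18). Pparg, the receptor of adipocyte differentiation, was low and overlapped between the groups, at 2.70 and 4.16 CPM against 3.18, 3.37 and 2.53 CPM (fold change -0.18, SE 0.31, adjusted p = 0.80). Per length, Ppara exceeded Pparg by a ratio of 15.4 and 10.4 in the Prdm16fl/fl mice and of 8.42, 11.6 and 22.2 in the Ksp-Cre/Prdm16fl/fl mice, and Ppard by a ratio of 2.83 and 2.97 against 1.48, 2.56 and 3.16.

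Of the 6 sirtuins other than Sirt3, 1 was lower (11.2% of all genes) and none higher (7.64%) at an unadjusted p under 0.05. Their median fold change was -0.20. Sirt4, another mitochondrial sirtuin, was at 30.5 and 32.4 CPM against 24.8, 23.7 and 24.4 CPM (fold change -0.37, SE 0.12, adjusted p = 0.17), and Sirt7, a nucleolar one, at 86.0 and 88.1 CPM against 73.5, 76.3 and 69.7 CPM (fold change -0.25, SE 0.10, adjusted p = 0.27). Each of these 2 fold changes was smaller in size than that of Sirt3.

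The 16 nuclear genes that work with TFAM on mitochondrial DNA had a median fold change of -0.17, with 2 lower and 1 higher at an unadjusted p under 0.05, shares near the 11.2% and 7.64% of all genes. Polg, the catalytic subunit of the mitochondrial DNA polymerase, was at 49.3 and 43.8 CPM against 60.7, 61.2 and 59.8 CPM (fold change 0.38, SE 0.11, adjusted p = 0.15). Top1mt, the mitochondrial topoisomerase, was at 39.0 and 35.9 CPM against 21.2, 28.8 and 26.3 CPM (fold change -0.56, SE 0.16, adjusted p = 0.15). For both genes the groups did not overlap, as for 20.3% of all genes on the higher side and 21.3% on the lower side.

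**Figure D5:**
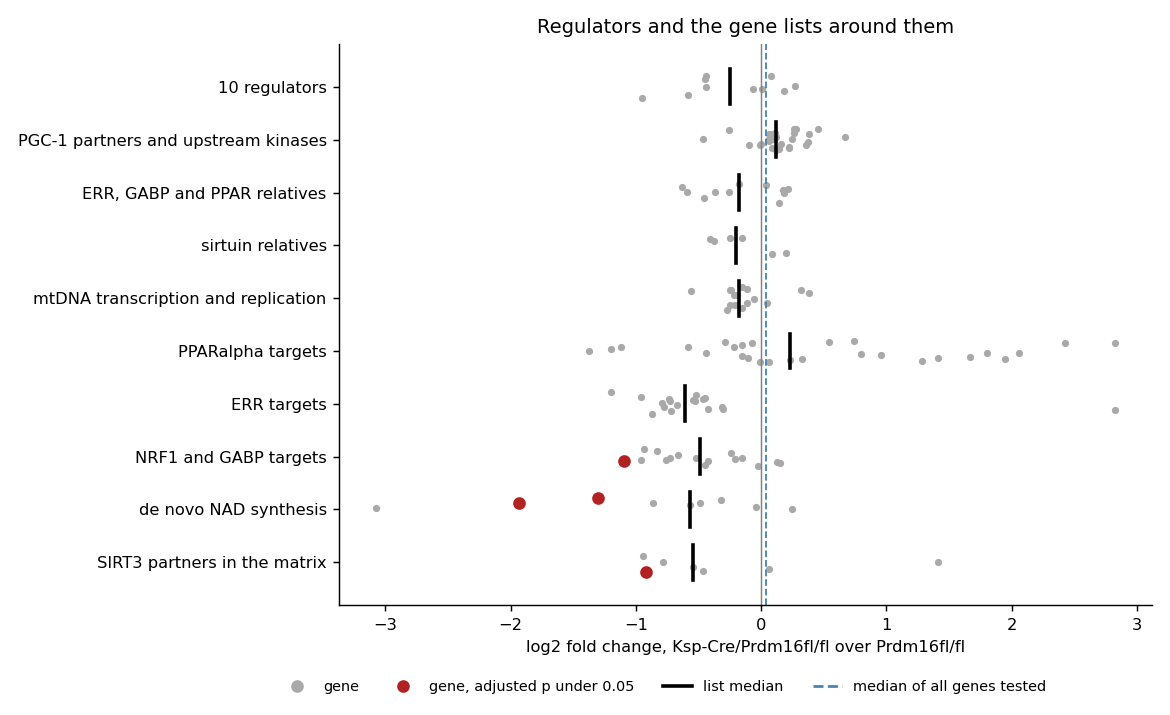
Fold change on the log2 scale of each tested gene of the 10 regulators and of 9 lists around them, with list medians (bars), genes past an adjusted p of 0.05 (red) and the median of all genes tested (dashed, 0.04). The medians run from -0.61 for ERR targets to 0.23 for PPARα targets, and the 4 red genes are Uqcrq, Haao, Afmid and Sod2.

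The genes most like a regulator in pattern were found by the root mean square difference of centred log2 CPM over the 5 libraries among the 11275 genes whose log2 CPM averaged 3 or more. Nearest to Ppargc1a was Dlst, a subunit of the oxoglutarate dehydrogenase complex, with a difference of 0.015, then BC004004 (0.022) and Hdhd5 (0.038). Dlst stood at 391 and 392 CPM in the Prdm16fl/fl mice and at 283, 296 and 289 CPM in the Ksp-Cre/Prdm16fl/fl mice. Nearest to Esrra were Me3, the mitochondrial NADP-dependent malic enzyme (0.040), Coq10b (0.042) and Tmem178 (0.052), and nearest to Ppara were Sqstm1, the autophagy receptor p62 (0.032), Mettl27 (0.044) and Ccdc57 (0.066). With 5 libraries and so many genes, near matches in pattern describe these mice only.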

How the data were processed

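RNA-seq of kidney from 2 Prdm16fl/fl and 3 Ksp-Cre/Prdm16fl/fl mice was analysed, grouped by the genotype in the labels. The methods name the kidney cortex, oligo(dT)-selected mRNA and an MGI platform, the labels a library kit made for Illumina. Raw gene counts were deposited without normalization, and the authors deposited TPM and FPKM beside them, which scale the counts by gene length and library total. The submitters' processing notes name CASAVA, featureCounts 2.0.1 and DESeq2 1.16.1. The aligner and the strand setting are not given in the sources used here, so reads shared with genes on the other strand (Pde6a for Ppargc1b, Atp5j for Gabpa, Trmt112 for Esrra, Ric8a for Sirt3) cannot be assigned. The only build named is hg38, a human one, although mouse genes are listed. Coordinates of genes are as in the files, and promoters are from RefSeq (GRCm38.p6), which listed 9 of the 10 regulators.

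For 5 genes whose entries ran over a line break, the parts were rejoined. Counts were filtered with filterByExpr, scaled with TMM and tested with the quasi-likelihood test of edgeR 4.0.16 (R 4.3.3) without covariates. A log2 CPM used a pseudocount of 0.05. The regulators and all lists were chosen with earlier results of these data known. Besides the regulators, genes named were those of each list past an adjusted p of 0.05 or, where there were none, the 2 of smallest p, with Acox2, Cpt1a and Pparg, which the study names, and the 3 genes nearest in pattern to Ppargc1a, Esrra and Ppara. Psmd13 was named for its position beside Sirt3, and Pdk4 and Plin2 after their values were seen. Family ratios used a two-sided exact permutation test. Nothing states that the mice of a group came from separate litters or days, and p-values set the difference between genotypes against the spread between these mice. Between mice of the same number, correlations of deviations from the group means were 0.0010 for mouse 1 and -0.022 for mouse 3. The deviations of the 2 Prdm16fl/fl mice mirror each other, so these values cannot exclude that the numbers pair the mice. Alternatives were DESeq2 1.42.0, other filters and scalings, limma 3.58.1 on FPKM, a gene length correction, the mouse number as a block, and leaving out each mouse. Python 3.11.15, pandas 2.3.3 and matplotlib 3.10.9 were used.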

Additional observations from a re-analysis of the deposited data

How the results depend on the processing

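Directions of Ppargc1a, Esrra, Esrrg, Nrf1, Tfam and Sirt3 were kept in all 16 alternatives, of which 11 used every mouse. Sirt3 passed an adjusted p of 0.05 with DESeq2 (fold change -0.95) and without a filter beyond 1 count in total (-0.95), Ppargc1a with DESeq2 (-0.44), and both with Tfam on omission of Ksp-Cre/Prdm16fl/fl mouse 3. With limma on log2(FPKM + 1) Ppargc1a was at -0.26 (adjusted p = 0.24, and 0.40 with no filter). Gabpa turned to -0.035 with the gene length trend removed and to -0.036 with the replicate block, and Ppara to 0.030 with scaling by library size. Leaving out 1 mouse gave fold changes of -0.47 to -0.41 for Ppargc1a, -0.18 to 0.38 for Ppargc1b, -0.034 to 0.045 for Gabpa, -0.56 to -0.33 for Tfam, -0.37 to 0.16 for Ppara, -0.026 to 0.42 for Rxra and -1.08 to -0.82 for Sirt3. The log2 ratio of Esrra to Esrrg then differed between genotypes by -0.25 to 0.083, that of Ppara to Pparg by -0.36 to 0.34, that of Ppargc1a to Ppargc1b by -0.81 (without Prdm16fl/fl mouse 1) to -0.26 (without mouse 3), and that of Ppara to Ppard by -0.57 to -0.026.

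The genes called higher and lower, 17 and 143 as reported, were 308 and 902 with DESeq2, 63 and 408 without a filter, 4 and 29 with the gene length trend removed, and 0 and 0 with limma on log2(FPKM + 1) without a filter (3887 genes at an unadjusted p under 0.05). Lower calls were 37 with scaling by library size, 51 with limma on log2(FPKM + 1) and 34 on log2(FPKM + 0.1). With the mouse number as a replicate block no gene was called (0 higher, 0 lower, 2061 at an unadjusted p under 0.05). Whether the numbers pair the mice is not known, so no conclusion was drawn from this fit. Leaving out 1 mouse gave 0 to 1266 higher and 0 to 1787 lower calls, the highest in the fit that omitted Ksp-Cre/Prdm16fl/fl mouse 3 and 0 when any other was omitted, so the calls of Uqcrq, Haao, Afmid and Sod2 were lost in those 4 fits.

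List medians moved with the scaling and unit. In the order library size scaling, limma on log2(FPKM + 1), on log2(FPKM + 0.1) and on log2(FPKM + 1) without a filter they were 0.23, 0.21, 0.23 and 0.20 for PGC-1 partners, -0.053, 0.015, 0.0043 and -0.023 for the receptor and GABP relatives, -0.089, -0.088, -0.091 and -0.088 for sirtuins, -0.060, -0.070, -0.086 and -0.070 for mitochondrial DNA genes, -0.49, -0.50, -0.50 and -0.50 for ERR targets, -0.37, -0.36, -0.37 and -0.36 for NRF1 and GABP targets, and -0.43, -0.43, -0.43 and -0.43 for SIRT3 partners. For PPARα targets the median was 0.32 with library size scaling, 0.098, 0.098 and 0.14 with the limma fits, 0.020 with at least 10 counts in every library, 0.33 with the length trend removed and 0.16 with the block. For NAD synthesis the limma fits gave -0.32, -0.41 and -0.41. With the gene length trend removed they were -0.11 for sirtuins, -0.46 for ERR targets and -0.33 for NRF1 and GABP targets, and with the block -0.24 for the relatives. Leaving out 1 mouse gave -0.38 to -0.011 for the relatives, -0.25 to -0.15 for sirtuins, -0.33 to 0.55 for PPARα targets and -0.66 to -0.58 for SIRT3 partners. The cause of these moves was not tested.

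With 2 mice against 3, an exact test of a single value cannot pass 0.05, and the interval of Ppargc1b, Ppara or Rxra holds changes of 0.5 in size. At 133 to 216 counts a library, Ppargc1b had the fewest reads of the 10.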
